A study of Mus musculus with 6 samples.

Results

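The alcohol and aldehyde dehydrogenases described here are 10 genes, Adh1, Adh4, Adh7, Aldh1a1, Aldh1a7, Aldh1b1, Aldh1l1, Aldh2, Aldh3a2 and Aldh8a1, out of 34745 genes listed. They were looked up by gene symbol from a list drawn up with earlier results of these data known, and all 10 were found and passed the filter on low counts. Bulk RNA-Seq had been performed on livers of WT mice given a single overdose of acetaminophen (APAP, 300 mg/kg, 12 hours) or saline, both by intraperitoneal injection after a fast of 12 hours. The study's methods name male C57BL/6J mice aged 8 to 10 weeks. The series has 3 livers per group, of which 2 APAP libraries (replicates 1 and 3) and 3 saline libraries were analysed, while APAP replicate 2 was not used here. The saline libraries carry the names WT1, WT2 and WT3, which do not tie them to single saline samples, and they were read as saline because the other libraries are named for APAP. Nothing in the labels says how livers were assigned to libraries, so p-values measure the spread between these libraries.

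Alcohol dehydrogenases (ADHs) oxidize alcohols such as ethanol and retinol to aldehydes in the cytosol, and aldehyde dehydrogenases (ALDHs) oxidize the aldehydes to acids. Both use NAD+ or NADP+ as the cofactor, and hepatocytes are their main site for ethanol and acetaldehyde. Other members of the family serve the vitamin A, folate, tryptophan and fatty aldehyde pathways, and several clear aldehydes that arise when lipids are peroxidized, a process known in APAP-injured liver.

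Each library held between 13378445 and 15976339 counts. Levels are given as CPM, counts scaled to a common library size and corrected for library composition. The limit of detection was set at 3 counts, or 0.176 to 0.269 CPM depending on the library, which covers counting error only. Hepatocyte plasma protein genes were abundant in every library, with Alb, which encodes albumin, at 6.56% to 11.3% of all counts. The sex-linked genes separated the groups. Xist, transcribed from the inactive X chromosome, had 0.764 and 1.73 CPM after APAP against 289.6 to 914 CPM after saline, while Ddx3y, on the Y chromosome, reached 79.0 and 61.7 CPM after APAP and no more than 0.0668 CPM after saline. The Y-linked genes Eif2s3y, Kdm5d and Uty were likewise at 12.7 CPM or more after APAP and at 0.0668 CPM or less after saline. Treatment and the sex difference that these genes show cannot be told apart in any value below. Of 21 tested genes known to be higher in female mouse liver, 16 were lower with APAP, with a median log2 fold change of −6.25, whereas the 13 tested male-biased genes had a median of 1.39, with 1 called lower (Ugt2b1) and 0 called higher (6 at an unadjusted p under 0.05 and 1.5-fold). The summed level of the male-biased list was 595 CPM in APAP replicate 1 and 2355 CPM in APAP replicate 3, against 642 to 1030 CPM after saline, so that the groups overlapped. In whole liver RNA, fewer hepatocytes and less RNA per hepatocyte cannot be told apart either.

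Sequences before the transcription start site are shown for 5 members, taken from RefSeq (GRCm38.p6), which held an entry for 9 of the 10 members. Adh1 and Adh4 lie together with Adh7 in 1 cluster on chromosome 3, and Aldh1a1 and Aldh1a7 lie close to each other on chromosome 19, on opposite strands. Aldh1a1 and Aldh1a7 are shown because they are close paralogs whose ratio differed between the groups, Adh7 because it was the one member with a positive log2 fold change, Aldh3a2 because it fell furthest, and Aldh8a1 because it holds letters also found in the Aldh1a pair. Each runs 5′ to 3′ on the strand of its gene and ends at the base before the RefSeq start site. These start sites differ from the gene starts in the coordinates given below. For Aldh3a2 the stretch shown (61267187 to 61267436) lies wholly within those coordinates (61223417 to 61267464, minus strand). Its CACGTG is thus downstream of that gene start.
Aldh1a1 (chr19:20601718-20601967, plus strand), with the longest run identical to Aldh1a7 in capitals: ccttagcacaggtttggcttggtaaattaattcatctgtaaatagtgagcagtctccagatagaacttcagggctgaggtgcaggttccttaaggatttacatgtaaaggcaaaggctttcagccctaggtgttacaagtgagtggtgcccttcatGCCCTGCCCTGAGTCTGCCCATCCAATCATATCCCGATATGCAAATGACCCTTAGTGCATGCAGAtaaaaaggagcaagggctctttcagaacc
Aldh1a7 (chr19:20727557-20727806, minus strand), with the same run in capitals: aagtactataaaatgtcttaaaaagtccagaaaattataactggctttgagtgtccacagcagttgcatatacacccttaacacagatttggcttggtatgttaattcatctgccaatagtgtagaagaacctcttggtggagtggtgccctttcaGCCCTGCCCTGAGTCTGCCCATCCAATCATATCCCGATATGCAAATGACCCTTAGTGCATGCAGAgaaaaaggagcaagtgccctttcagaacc
Adh7 (chr3:138217523-138217772, plus strand), with the AP-1 motif letters TGAGTCA in capitals: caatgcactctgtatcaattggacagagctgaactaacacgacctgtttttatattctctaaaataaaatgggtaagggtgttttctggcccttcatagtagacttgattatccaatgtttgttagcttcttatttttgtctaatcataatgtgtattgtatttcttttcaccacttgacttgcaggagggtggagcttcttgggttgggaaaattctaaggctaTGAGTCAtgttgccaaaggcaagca
Aldh3a2 (chr11:61267187-61267436, minus strand), with the E-box letters CACGTG in capitals: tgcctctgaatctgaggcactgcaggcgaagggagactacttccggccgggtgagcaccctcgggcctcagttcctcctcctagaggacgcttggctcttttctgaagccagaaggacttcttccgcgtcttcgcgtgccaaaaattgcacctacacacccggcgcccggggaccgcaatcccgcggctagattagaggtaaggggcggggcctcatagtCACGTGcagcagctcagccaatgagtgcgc
Aldh8a1 (chr10:21377050-21377299, plus strand), with the octamer letters ATGCAAAT in capitals: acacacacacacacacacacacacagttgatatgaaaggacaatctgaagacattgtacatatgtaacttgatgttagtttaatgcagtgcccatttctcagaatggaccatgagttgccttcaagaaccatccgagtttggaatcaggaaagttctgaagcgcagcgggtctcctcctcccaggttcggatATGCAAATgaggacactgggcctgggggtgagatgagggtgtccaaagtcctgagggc

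The 250 bases before Aldh1a1 and Aldh1a7 were identical at 173 of 235 aligned positions (73.6%), and the longest identical run was 65 bases. This run holds ATGCAAAT, 56 bases before each start site, and Aldh8a1 holds the same letters 58 bases before its own. Of 32851 promoter entries of the same length, 1.60% hold ATGCAAAT on either strand, 4.46% hold TGAGTCA and 6.02% hold CACGTG. The letters TGAGTCA are not particular to Adh7, as 2 members hold them. Aldh1a1, which was lower with APAP, has them on the other strand (TGACTCA) in another RefSeq entry, not shown, 57 bases before its start site. Other letters were searched as well: CCAAT was in 6 members (33.8% of all entries), TATAAA in 2 (12.4%) and TGACNNNGC, with N for any base, in 0 (10.2%). The letters were chosen after the sequences had been read, and a match is a description of these letters only.

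The summed level of the 10 members in the APAP livers was at 35.6% of the saline mean, without the other Adh and Aldh genes. The summed level of the 10 members, in CPM per kilobase of the principal protein-coding transcript, was 692.7 and 1240 in APAP replicates 1 and 3 and 3462, 2804 and 1884 in WT1, WT2 and WT3, so that the groups did not overlap. Of the 10 members, 9 had a negative and 1 a positive log2 fold change, with a median of −1.23 against 0.03 over all 13734 tested genes. Of all tested genes, 7.23% had an adjusted p under 0.05 in either direction. Aldh3a2 and Aldh1l1 were lower at this threshold (2 of 10, where 3.53% of all tested genes were called lower), and none of the members was called higher by the quasi-likelihood test as reported (3.70% of all tested genes). Adh7 had an unadjusted p under 0.05 in this fit (1 member) and was called higher by DESeq2 and under 4 edgeR alternatives. The libraries did not overlap between groups in 6 members that were lower with APAP (20.1% of all tested genes) and in Adh7, which was higher (24.0%). At cutoffs of 1.5-fold and P under 0.05, which the study names and which were applied here to unadjusted p-values, 7 members were lower (11.2% of all tested genes) and 1 was higher (12.3%).

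**Figure D1:**
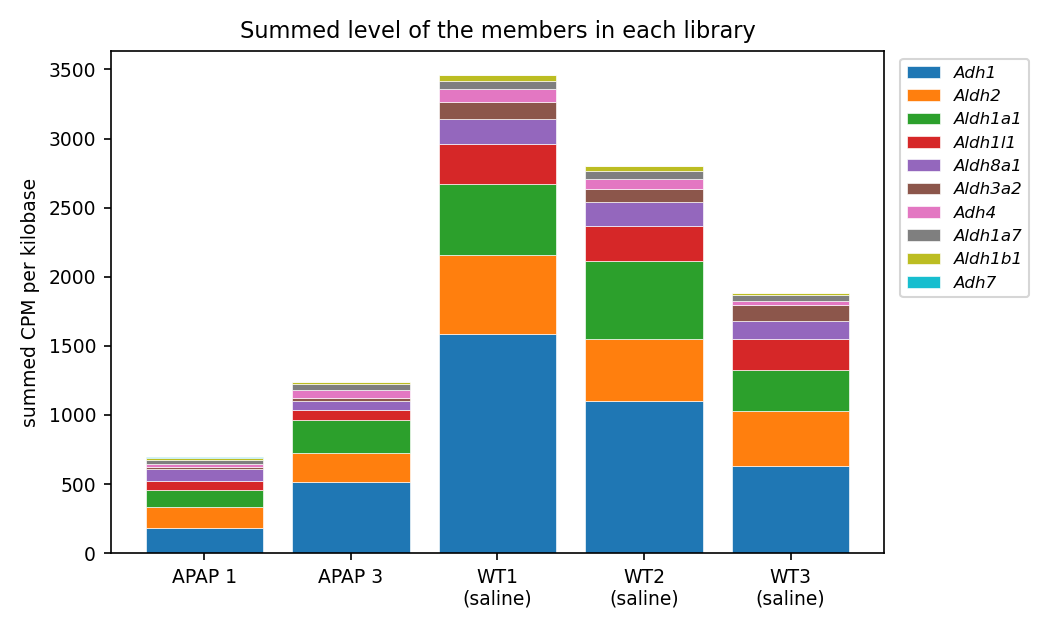
Stacked bars give the summed level of the 10 members in each library, in CPM per kilobase of the principal transcript, with 1 color per gene. The APAP libraries reach 692.7 and 1240 and the saline libraries between 1884 and 3462.

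In the saline livers the levels per kilobase ran from Adh1 (1105 ± 478 CPM per kilobase, SD, n = 3) through Aldh2 (474.8 ± 92.7), Aldh1a1 (456 ± 137), Aldh1l1 (256.5 ± 33.6), Aldh8a1 (164 ± 27.4) and Aldh3a2 (109 ± 13.5) to Adh4 (65.3 ± 32.8), Aldh1a7 (52.5 ± 8.07), Aldh1b1 (33.4 ± 15.1) and Adh7 (0.784 ± 0.296). Neighbours in this order overlapped between libraries for Aldh2 and Aldh1a1, for Aldh3a2 and Adh4, for Adh4 and Aldh1a7 and for Aldh1a7 and Aldh1b1. With all annotated exons of a gene as its length, Aldh1l1 stood above Aldh1a1 (237 against 218 CPM per kilobase) and the order was otherwise the same.

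Adh1, the class I enzyme that carries most of the ethanol oxidation in liver and also oxidizes retinol, was the most abundant member per kilobase (ENSMUSG00000074207, chromosome 3 of GRCm38, 138260991 to 138290698). It was at 266 and 769.5 CPM in APAP replicates 1 and 3, against 2362, 1646 and 936 CPM in WT1, WT2 and WT3. Both APAP libraries lay below all saline libraries, but APAP replicate 3 was close to WT3, and the libraries of a group differed by 2.89-fold with APAP and by 2.52-fold with saline. On the log2 scale the difference was −1.67 (standard error 0.59, 95% interval −3.06 to −0.28), with an adjusted p of 0.138. Unless another test is named, adjusted p-values are from the quasi-likelihood test in edgeR, adjusted over all tested genes. Leaving out APAP replicate 3 gave −2.64 (adjusted p = 0.0965) and leaving out APAP replicate 1 gave −1.10 (adjusted p = 0.457). Adh1 passed under the likelihood ratio test of edgeR (adjusted p = 0.0452) and in DESeq2 (adjusted p = 0.0129).

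Adh4, the class II enzyme, oxidizes ethanol at high concentrations as well as retinol and fatty alcohols (ENSMUSG00000037797, chromosome 3, 138415466 to 138430892). It was at 28.2 and 75.6 CPM after APAP against 124, 94.2 and 39.0 CPM with saline. The groups overlapped, since WT3 was below APAP replicate 3, and the log2 fold change of −0.72 (95% interval −2.08 to 0.63) had an adjusted p of 0.486. It was −0.18 without APAP replicate 1 (adjusted p = 0.928), −1.61 with APAP replicate 3 left out (adjusted p = 0.264) and −0.35 with WT1 left out (adjusted p = 0.753). Adh1 and Adh4 varied alike between libraries, with the lowest saline level of both in WT3 and the lower APAP level of both in replicate 1. The same libraries were lowest for Aldh1a1, Aldh1a7, Aldh1l1 and Aldh2, so this was not particular to the pair. The ratio of Adh1 to Adh4 did not overlap between the groups. There were 945 and 1018 counts of Adh1 per 100 counts of Adh4 after APAP against 1747 to 2400 after saline. This is a description with no test. The ratios of Aldh1a1 to Adh1, Aldh2 to Adh1 and Aldh2 to Aldh1a1 were also computed, and each overlapped between the groups. How often the ratios of other gene pairs separate was not computed.

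Adh7, the class IV enzyme, is known from the epithelium of the stomach and esophagus and is a strong retinol dehydrogenase (ENSMUSG00000055301, chromosome 3, 138217760 to 138233382). It was at 12.3 and 5.56 CPM with APAP, which were 209 and 90 counts, and at 3.41, 1.53 and 3.14 CPM with saline, which were 38, 23 and 47 counts. Both APAP libraries were above all saline libraries. The log2 fold change of 1.73 (standard error 0.48, 95% interval 0.59 to 2.88) did not pass (adjusted p = 0.0812), and it was 1.05 without APAP replicate 1 (adjusted p = 0.441). It passed with 5 of the 12 alternatives, among them the likelihood ratio test (adjusted p = 0.0164) and DESeq2 (adjusted p = 0.0226). The gene 0610031O16Rik on the opposite strand shares 108 exonic bases with Adh7 (2.85% of its exonic bases), and since the strand setting of the counting is not given in the sources used here, reads in those bases cannot be assigned. Its counts were 533 and 314 with APAP and 454, 697 and 511 with saline, so that it was not ordered between libraries as Adh7 was.
Of 11 marker genes of stomach and squamous epithelium, 4 had no count in any library and 2, Muc5ac and Krt5, were tested, both called higher with APAP. The summed level of the list was 8.64 and 5.01 CPM after APAP and at most 0.468 CPM after saline, and their part in the level of Adh7 was not tested.

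The cluster on chromosome 3 holds the genes in the order Adh7, Adh1, Adh6a, Adh6b, Adh6-ps1, Adh4 and Adh5. Adh6a had no count in any library and Adh6b had 1 count in WT2 and none in the other libraries. Adh5, the glutathione-dependent formaldehyde dehydrogenase that also reduces S-nitrosoglutathione, was at 175 and 204 CPM after APAP against 348, 269 and 223 CPM with saline (log2 fold change −0.56, 95% interval −1.21 to 0.08, adjusted p = 0.259). The pseudogene Adh6-ps1 shares 4 of the 1443 words of 50 bases in the Adh1 transcript and had at most 159 counts in a library, against 4535 or more for Adh1.

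**Figure D2:**
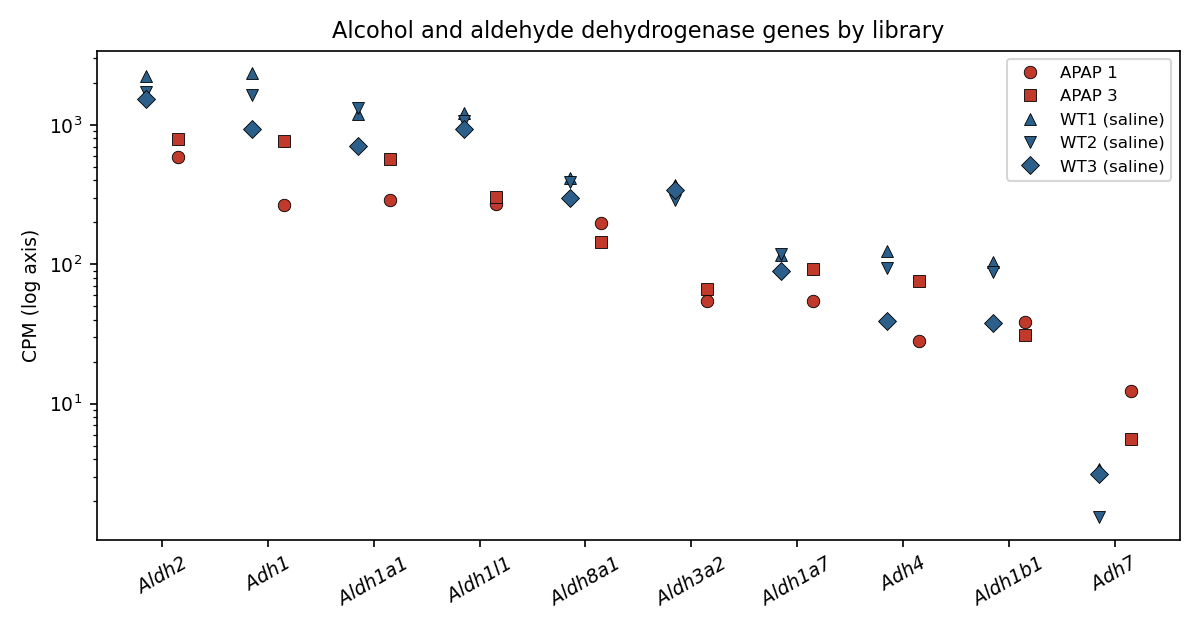
Points give the level of each member in each library in CPM on a log axis, with APAP libraries in red and saline libraries in blue. For Aldh1l1, Aldh3a2, Aldh2, Aldh8a1, Adh1 and Aldh1a1 both red points lie below all blue points, and for Adh7 they lie above.

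Aldh2, the mitochondrial enzyme that clears most of the acetaldehyde made from ethanol and also oxidizes the lipid peroxidation product 4-hydroxynonenal, was the member with the highest mean CPM in saline livers (ENSMUSG00000029455, chromosome 5, 121566027 to 121593824). It was at 589 and 798 CPM after APAP against 2233, 1738 and 1537 CPM with saline. The APAP libraries were clearly separated from the saline libraries, at 37.8% of the saline mean. Its log2 difference of −1.40 (standard error 0.33, 95% interval −2.18 to −0.63) lay at the threshold with an adjusted p of 0.0504. It passed with 5 of the 12 alternatives, among them both other filters on low counts (adjusted p = 0.0369 and 0.0418), and in none of the 5 fits that left out 1 library (adjusted p from 0.0655 to 0.265).

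Aldh1b1, a mitochondrial paralog that also oxidizes acetaldehyde, was at 38.5 and 31.0 CPM after APAP against 105, 87.6 and 37.9 CPM with saline (ENSMUSG00000035561, chromosome 4, 45799022 to 45804604). The groups overlapped because WT3 lay just below APAP replicate 1, while WT1 and WT2 were far above both APAP libraries. On the log2 scale it differed by −1.14 (standard error 0.43), with an adjusted p of 0.159, and without WT3 it was −1.47 with an adjusted p of 0.0270. WT3 was the lowest of the saline libraries for 8 of the 10 members.

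Aldh1a1, the cytosolic enzyme that oxidizes retinal to retinoic acid, was at 290 and 570.5 CPM after APAP against 1195, 1322 and 709 CPM with saline (ENSMUSG00000053279, chromosome 19, 20601961 to 20643462). The groups did not overlap, and APAP replicate 3 came near WT3. Its log2 fold change of −1.32 (standard error 0.43, 95% interval −2.34 to −0.31) had an adjusted p of 0.116, and it passed under the likelihood ratio test (adjusted p = 0.0409) and in DESeq2 (adjusted p = 0.00956).
Aldh1a7, its close paralog in rodents, was at 54.2 and 92.6 CPM after APAP against 117, 119 and 89.2 CPM with saline (ENSMUSG00000024747, chromosome 19, 20692953 to 20727562). APAP replicate 3 was above WT3, and the log2 fold change of −0.56 (95% interval −1.26 to 0.14) had an adjusted p of 0.296. With APAP replicate 1 left out it was −0.22 (adjusted p = 0.807), and with APAP replicate 3 left out it was −1.01 (adjusted p = 0.184). For every 100 counts of Aldh1a1 there were 18.7 and 16.2 counts of Aldh1a7 after APAP against 9.78, 9.01 and 12.6 after saline, so that this ratio did not overlap between the groups. It is a description, as the difference between the 2 genes was not tested. Other member ratios that did overlap are named above with Adh4. The paralogs share 151 words of 50 bases, 6.54% of those of Aldh1a1 and 7.49% of those of Aldh1a7, and how reads in these words were counted is not given in the sources used here. With the counts of both summed, the log2 fold change was −1.23 (adjusted p = 0.128).

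Aldh3a2, the fatty aldehyde dehydrogenase of the endoplasmic reticulum, fell furthest among the members (ENSMUSG00000010025, chromosome 11, 61223417 to 61267464). It was at 54.9 and 67.0 CPM after APAP against 373, 290 and 344 CPM with saline. Libraries within a group lay close together, within 1.22-fold with APAP and 1.28-fold with saline, while the saline mean was 5.51-fold the APAP mean. Its log2 difference was −2.46 (standard error 0.26, 95% interval −3.09 to −1.84, adjusted p = 0.00523), and the adjusted p stayed under 0.05 with all 12 alternatives (at most 0.0486).

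Aldh1l1, the cytosolic 10-formyltetrahydrofolate dehydrogenase, which releases the one-carbon unit of folate as CO2, was the other member that fell (ENSMUSG00000030088, chromosome 6, 90486427 to 90600203). It was at 272 and 304 CPM after APAP against 1214, 1066 and 933 CPM with saline. The highest APAP library was far below the lowest saline library, and the APAP mean was 26.9% of the saline mean. This was a log2 difference of −1.90 (standard error 0.28, 95% interval −2.56 to −1.23, adjusted p = 0.0147). The call was lost without APAP replicate 1 (−1.81, adjusted p = 0.115), without APAP replicate 3 (−1.99, adjusted p = 0.0643) and without WT2 (−1.90, adjusted p = 0.0755), where the fold change itself hardly moved.

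Aldh8a1, the 2-aminomuconic semialdehyde dehydrogenase of tryptophan breakdown, was at 199 and 145 CPM after APAP against 419, 393 and 301 CPM with saline (ENSMUSG00000037542, chromosome 10, 21377291 to 21396585). The groups did not overlap. Unlike most members, its lower APAP level was in replicate 3. The log2 fold change of −1.11 (standard error 0.28, 95% interval −1.77 to −0.44) had an adjusted p of 0.0628, and it passed under the likelihood ratio test (adjusted p = 0.0196) and in DESeq2 (adjusted p = 9.00e-04).

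**Figure D3:**
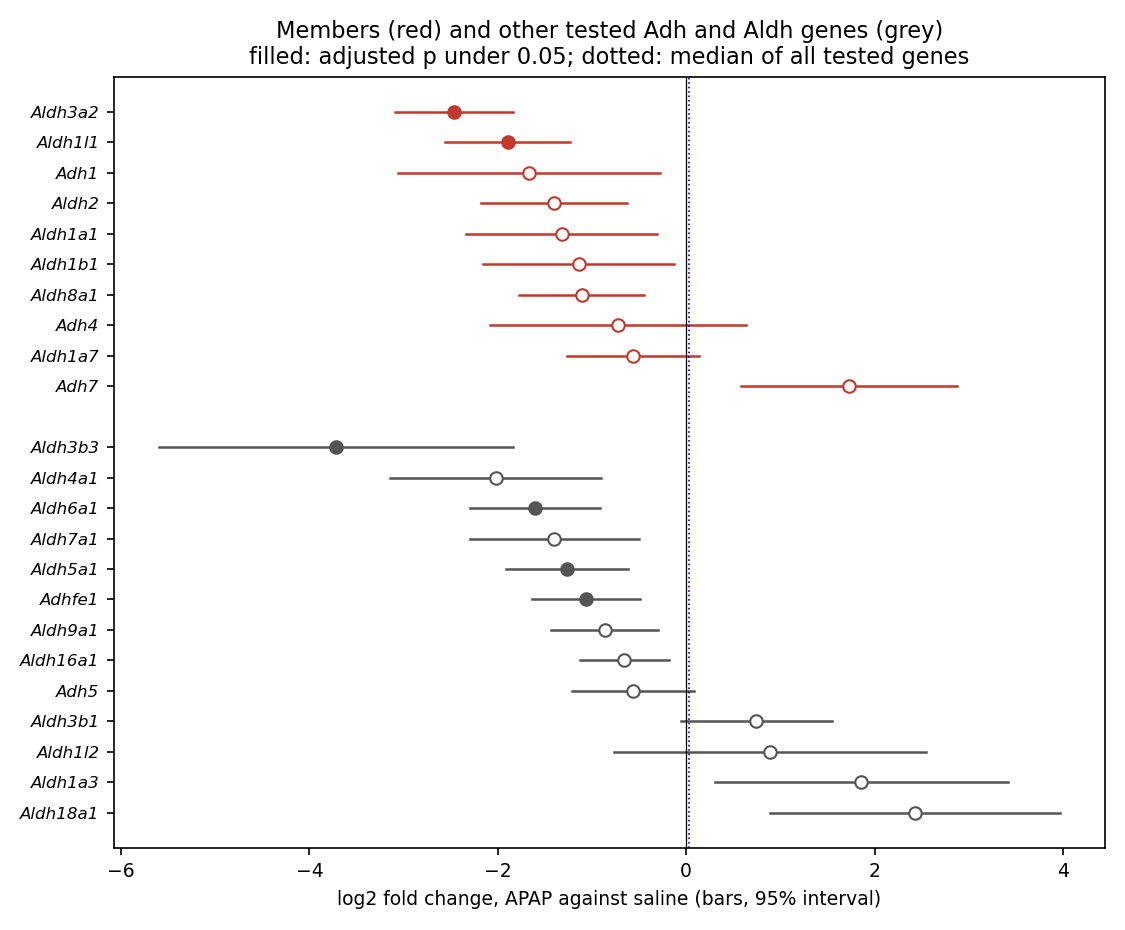
Points give the log2 fold change of the 10 members (red) and of 13 other tested Adh and Aldh genes (grey), with bars for the 95% interval and filled points for an adjusted p under 0.05. The members run from −2.46 (Aldh3a2) to 1.73 (Adh7), and the dotted line marks the median of all tested genes at 0.03.

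The share of each member in the summed level was also read. Adh4, Adh7 and Aldh1a7 made up a larger share of the summed level per kilobase in both APAP libraries than in every saline library, with Aldh1a7 at 3.79% and 3.61% against 1.63% to 2.29%. Aldh3a2 made up a smaller share (2.56% and 1.75% against 3.35% to 5.90%). The shares of the other 6 members overlapped between the groups, Adh1 among them at 25.8% and 41.6% with APAP and 33.3% to 45.7% with saline. Shares within a library depend on each other, and no test was run on them. Separation of 2 from 3 libraries was common in these data. The CPM levels of 20.1% of all tested genes were lower with APAP without overlap, and those of 24.0% were higher. No such rate was computed for shares.

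Of the 18 other Adh and Aldh genes in the table, 13 were tested, 4 were lower with an adjusted p under 0.05 and none was higher. At 1.5-fold and an unadjusted p under 0.05, 8 were lower and 2 were higher. Aldh6a1, the methylmalonate semialdehyde dehydrogenase of valine breakdown, was at 143 and 221 CPM after APAP against 582, 557 and 520 CPM with saline (log2 fold change −1.60, adjusted p = 0.0257). Aldh5a1, which oxidizes succinate semialdehyde, fell by 1.27 on the log2 scale (adjusted p = 0.0417) and Adhfe1, the hydroxyacid-oxoacid transhydrogenase, by 1.06 (adjusted p = 0.0471). Aldh3b3 fell by 3.71 (adjusted p = 0.0406) from at most 3.52 CPM. Its APAP levels were 0.0588 and 0.309 CPM, which were 1 and 5 counts, the first below the limit of detection. Of its words of 50 bases, 14.5% occur in other genes, the closest being Aldh3b2. The median log2 fold change of the 13 genes was −0.87. Aldh3a1, a paralog of Aldh3a2 known from cornea and stomach, had no count in any library, and Aldh1a2, which makes retinoic acid in other cell types, had at most 5 counts.

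The pathways that the members belong to were read from the same fit. For ethanol and acetate, 3 of 5 genes fell with APAP and none was called higher, namely Cyp2e1, which oxidizes both ethanol and APAP, and the acyl-CoA synthetases Acss2 and Acss3, for which acetate or propionate is a substrate. Cyp2e1 was at 782.5 and 1593 CPM after APAP against 8353, 5265 and 4363 CPM with saline (log2 fold change −2.34, adjusted p = 0.0418). Catalase (Cat), at 896 and 1252 CPM against 3118, 2555 and 1831 CPM, did not pass (adjusted p = 0.0951).

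Around the retinol and retinal oxidizing members Adh1, Adh4, Adh7 and Aldh1a1, 5 of 28 tested genes of retinoid metabolism fell and 1 was higher, with a median log2 fold change of −0.35. The fallen genes were Ces1d, a carboxylesterase, the retinol dehydrogenase Rdh16, the retinal reductase Dhrs3, the retinoic acid hydroxylase Cyp26a1 and the carotenoid oxygenase Bco2. Rdh16 was at 21.9 and 36.2 CPM after APAP against 148, 144 and 218 CPM with saline (log2 fold change −2.55, adjusted p = 0.0112). Cyp26a1, which degrades retinoic acid and is known to be induced by it, was at 3.11 and 4.33 CPM against 58.5, 23.7 and 15.9 CPM (log2 fold change −3.13, adjusted p = 0.0330). Bco1, which cleaves carotene to retinal, was the gene that rose (log2 fold change 2.03, adjusted p = 0.0103).

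Around Aldh1l1, 6 of 24 tested genes of folate one-carbon metabolism fell and 1 rose, with a median log2 fold change of −0.18. The most abundant fallen genes were Gnmt, the glycine N-methyltransferase that binds folate, the mitochondrial Sardh and Dmgdh, which pass one-carbon units from sarcosine and dimethylglycine to folate, and Gldc of the glycine cleavage system. Sardh was at 148 and 161 CPM after APAP against 1060, 826 and 540 CPM with saline (log2 fold change −2.39, adjusted p = 0.0162). Mthfd1l, the mitochondrial enzyme that releases formate, rose by 1.91 on the log2 scale (adjusted p = 0.0282) from at most 1.73 CPM with saline.

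Around Aldh8a1, 6 of 12 tested genes of tryptophan and kynurenine metabolism fell and none was called higher, with a median log2 fold change of −1.26. Kynu, the kynureninase, was at 56.3 and 64.3 CPM after APAP against 243, 263 and 406 CPM with saline (log2 fold change −2.33, adjusted p = 0.0118), and Haao, Gcdh and Aadat also fell. Acmsd, the decarboxylase that makes the substrate of Aldh8a1 and that is named here after its values were seen, was at 9.64 and 5.44 CPM against 51.8, 47.3 and 48.6 CPM (log2 fold change −2.71, adjusted p = 0.00568). Tdo2, which opens the pathway and was also named after its values were seen, overlapped between the groups (log2 fold change −0.15, adjusted p = 0.857).

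Around Aldh3a2, 5 of 17 tested genes of fatty aldehyde metabolism and omega oxidation fell and none was called higher, with a median log2 fold change of −0.62. They were the fatty acid omega-hydroxylases Cyp4v3, Cyp4f14 and Cyp4f15, the peroxisomal reductase Pecr, and Agmo, which cleaves ether lipids to fatty aldehydes. Agmo was at 21.5 and 39.9 CPM after APAP against 143, 103 and 96.4 CPM with saline (log2 fold change −1.89, adjusted p = 0.0274). Among 25 tested genes of a list made for other aldehyde clearance, Akr1c14, Akr1d1 and Hagh fell, and Akr1b8 and Cbr3 rose, with a median log2 fold change of −0.52. The list takes in Akr genes as a family, and activity on aldehydes was not tested for any of them. Cbr3, a carbonyl reductase that is also an NRF2 target, rose by 4.10 on the log2 scale (adjusted p = 0.00855) from at most 0.465 CPM with saline.

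**Figure D4:**
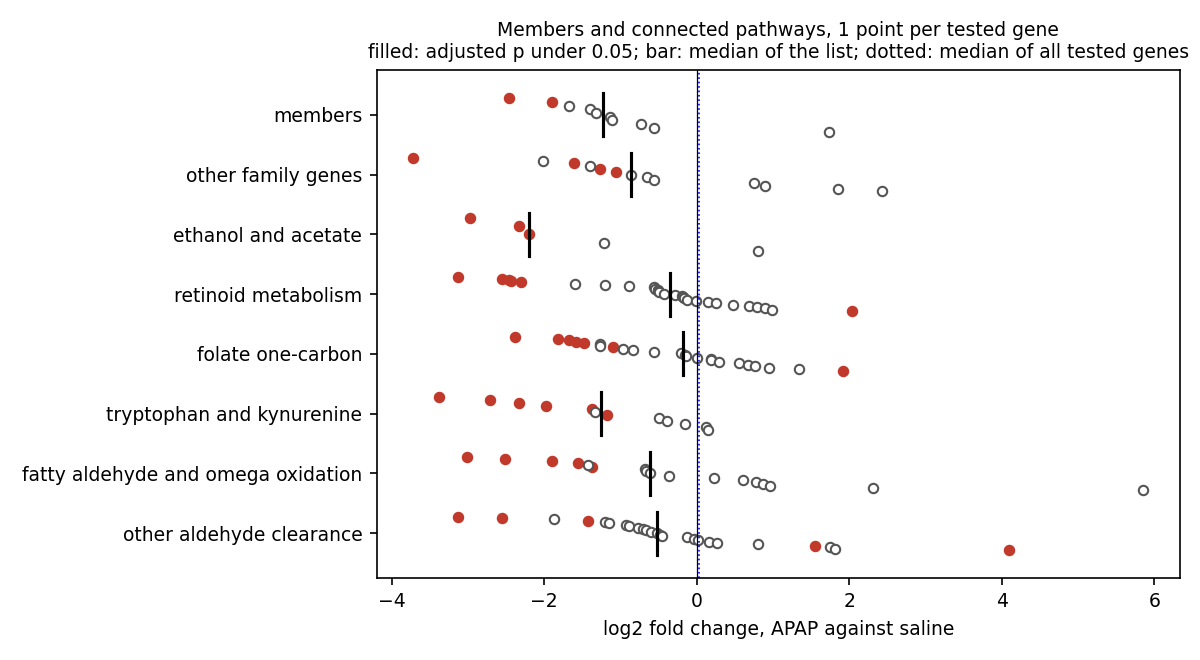
Each point is the log2 fold change of 1 tested gene of the members, of the other family genes or of a connected pathway, filled where the adjusted p was under 0.05, with a bar at the median of each list. The medians run from −2.20 (ethanol and acetate) to −0.18 (folate one-carbon), beside 0.03 for all tested genes.

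Other genes of hepatocytes and of other cells moved in the same libraries. Hepatocyte plasma protein genes were lower by a median of 0.71 (16 of 17 with a negative log2 fold change, 1 called), and their summed level was 89084 and 145960 CPM with APAP and 153240 to 218246 CPM with saline. Of the 15 centrilobular genes, 10 fell and 1 rose (median −2.88), and of the 14 periportal genes 4 fell (median −0.89), while Cps1, the most abundant of these, did not pass (−0.90, adjusted p = 0.186). Neutrophil genes were higher (8 of 9 tested genes called higher, summed level 81.8 and 130 CPM against 5.58 to 8.89 CPM), as were Spp1 and Sox9 of the 5 tested cholangiocyte genes (summed level of the list 347 and 356 CPM against 47.1 to 52.3 CPM). Most of this sum was Spp1, at 276 and 313 CPM with APAP and 37.7 to 42.6 CPM with saline. Endothelial genes overlapped between the groups (178 to 294.5 CPM summed with saline, 181 and 260 CPM with APAP), and so did the Kupffer cell and monocyte list, in which Chil3 and Ccr2 were called higher. Stellate cell genes had a summed level of 393 and 501 CPM with APAP and of 508 to 629 CPM with saline, with Col1a1 called higher, and lymphocyte genes were at 9.23 CPM or less in every library. NRF2 target genes were called higher in 7 and lower in 2 of 20, with a median of 0.97. The part of these differences in the levels of the members was not tested.

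With the libraries scaled to the plasma protein genes in place of the composition of all genes, the median log2 fold change of all tested genes was 0.77 and that of the members −0.46 (1.24 below that of all genes, against 1.26 below it with the reported scaling). Adh4 and Aldh1a7 changed sign under this scaling (log2 fold changes of 1.59e-04 and 0.14), whereas Aldh3a2 (−1.72) and Aldh1l1 (−1.14) had an adjusted p under 0.05 here too.

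**Figure D5:**
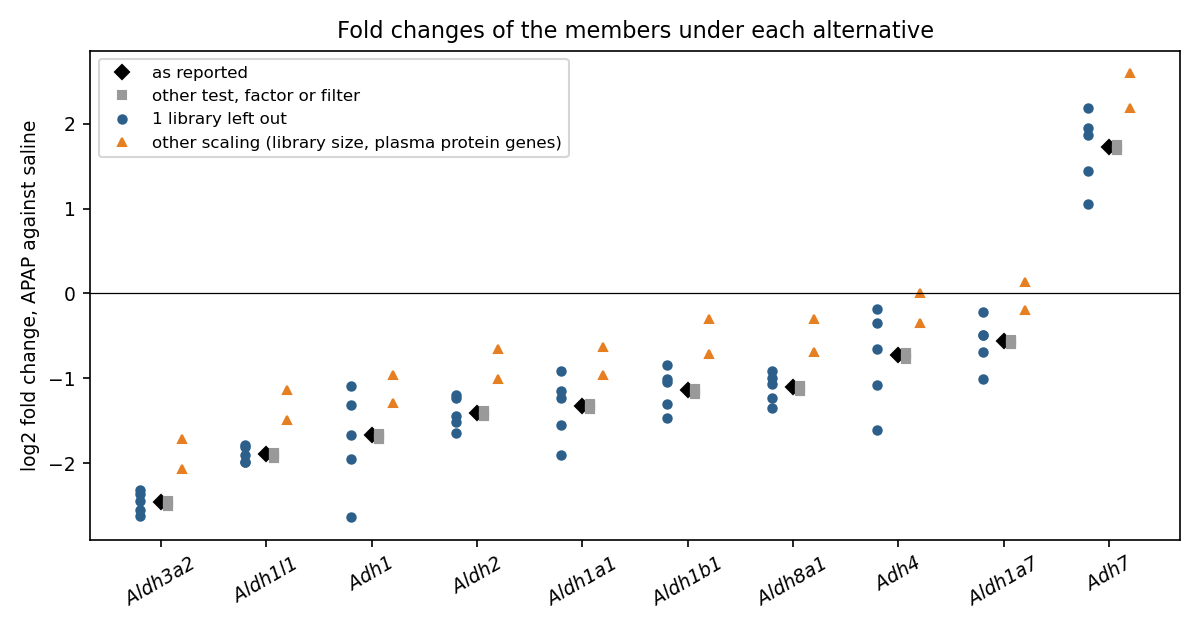
Points give the log2 fold change of each member as reported (diamonds), with 1 library left out (circles), with another test, normalization factor or filter (squares) and with 2 other scalings (triangles). Aldh3a2 stays between −2.62 and −1.72, and Adh4 and Aldh1a7 reach the zero line or above it with the libraries scaled to plasma protein genes.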

How the data were processed

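Liver RNA was sequenced by the authors on an Illumina platform, and the deposited raw count per gene and library was obtained after alignment with HISAT2. The genome build is GRCm38 (mm10) per the labels. Program versions, annotation and strand setting are not given in the sources used here. The 5 FPKM columns were not used.

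The analysis used edgeR 4.0.16 (R 4.3.3), in which filterByExpr (minimum count 10, minimum total 15) kept 13734 genes, TMM factors (0.783 to 1.27) were applied, and groups were compared by the quasi-likelihood test (glmQLFit, glmQLFTest) with Benjamini-Hochberg adjustment over these genes and a threshold of 0.05. The common biological coefficient of variation was 33.3%. The procedure was also run on counts simulated with the dispersions of this fit. That run held no sex difference and is not evidence for the calls reported here. The design had been written for all mapped libraries, and the study names edgeR but not its test. Alternatives were the likelihood ratio test, DESeq2 1.42.0, other scalings and filters, and each library left out.

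The members and gene lists were chosen with earlier results of these data known. The rule for named genes took all members, the other Adh and Aldh genes that were called, up to 4 of the most abundant called genes of each pathway, the sex-linked genes and the most abundant gene of each marker list. Genes named outside it (Bco1, Bco2, Mthfd1l, Agmo, Cat, Acmsd, Tdo2, Cbr3, Krt5, Sox9, Chil3, Ccr2, Col1a1 and Ugt2b1) were chosen after their values were seen, some because 5 or fewer genes were called. Also outside it are Adh5, Adh6a, Adh6b, Adh6-ps1, 0610031O16Rik, Aldh3a1, Aldh1a2 and Aldh3b2, none of them called. The text does not describe all genes that the rule took, and leaves out S100a9, Marco, Fcgr2b, Dcn, Cd79a, Gstm1, Mup20 and Cyp2c69, each the most abundant of its marker list. Transcript lengths and words of 50 bases were taken from GENCODE M21, where 22 of 28 Adh and Aldh genes had the coordinates of the deposited table, which are the ones given. Amino acid sequences were not used here.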

Additional observations from a re-analysis of the deposited data

How the results depend on the processing

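The number of genes with an adjusted p under 0.05 was 993 and became 2093 in DESeq2, 1835 with the likelihood ratio test, 2034 with scaling to plasma protein genes and 3228 at cutoffs of 1.5-fold and P under 0.05 applied to unadjusted p-values. Leaving out 1 library gave between 165 (without WT2) and 922 genes. The 2 members called lower became 6 in DESeq2 and with the likelihood ratio test and 7 with the unadjusted threshold. Leaving out 1 saline library gave between 1 and 3. Of all 13734 tested genes, 485 were called lower in the reported fit, 1155 in DESeq2 and 869 with the likelihood ratio test. Called higher were 508, 938 and 966 genes, in the same order. With the unadjusted threshold 1532 genes were lower (11.2%) and 1696 were higher (12.3%). With 1 saline library left out, between 78 and 488 genes were called lower. No member was called higher in the reported fit (1 at an unadjusted p under 0.05), and 1 was, Adh7, in DESeq2, with the likelihood ratio test, with the unadjusted threshold, with a filter of 1 count in any library, with library size only and with scaling to plasma protein genes, but in 0 of the fits that left out 1 library.

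The median log2 fold change of the members, −1.23, was −0.84 with library size only and −0.46 with scaling to plasma protein genes, and between −1.63 (without APAP replicate 3) and −1.11 with 1 library left out. Scaling moved the median of all tested genes to 0.42 and 0.77, and the share of called genes that were higher from 51.2% to 77.8% and 90.2%. Of the members, Adh4 (1.59e-04) and Aldh1a7 (0.14) reversed under scaling to plasma protein genes, and no other member changed sign under any of the 12 alternatives. The cause of these differences was not tested, beyond the fewer libraries of the fits that left one out, in which a lone APAP library is assumed to vary like the saline libraries. No paired analysis was possible because the saline libraries are not tied to numbered samples. Adh7 had 23 to 209 counts per library, the fewest of the members.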
